A study of Homo sapiens with 16 samples.

Results

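PHOX2A, HAND1, HAND2, GATA2, GATA3, ISL1, TFAP2B and EYA1 are 8 transcriptional regulators known from sympathoadrenal cells, the neural crest derivatives that form sympathetic neurons and the adrenal medulla. They were chosen by name, through the gene symbols of the array's annotation, with earlier results of these data known. The array holds 21 probe sets for them among 49293 that are not controls, and all 21 passed the filter on dim probe sets. The cells were SK-N-SH, an established human neuroblastoma line in which adrenergic, neuroblast-like cells and flat mesenchymal cells grow side by side. All 16 samples were of this line, with 4 arrays in each of 4 groups, namely untreated cells and cells given 10 µM risperidone for 6, 24 or 48 h. Risperidone, an antipsychotic, blocks receptors of dopamine and of serotonin. Cells of every group had first been cultured for 48 h until nearly confluent, and the labels name no genetic change. The samples called untreated received the DMSO vehicle according to the protocol, their harvest time is not given, and the same 4 arrays are the reference for every exposure time. Replicates are called biological in the labels, but nothing says that they came from separate cultures, so a p-value here reads only the spread among these arrays, which may be technical.

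In developing sympathetic neurons these regulators act together. The homeodomain proteins PHOX2A and ISL1, the basic helix-loop-helix proteins HAND1 and HAND2, the zinc finger proteins GATA2 and GATA3 and the AP-2 family member TFAP2B bind DNA at shared enhancers, several of which lie at their own genes. Neuroblastoma cells of the adrenergic state are known to hold this circuit active, while cells of the mesenchymal state use other factors. EYA1 binds no DNA itself. It is a phosphatase and coactivator that is brought to DNA by homeodomain proteins such as SIX4.

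Expression is given as log2 RMA values, which rise by 1 for each doubling, and a change is the difference between the means of 2 groups. A gene with several probe sets was represented by its brightest, here called its leading probe set, and the others are given beside it. A change counted as a rise or a fall where limma's adjusted p was below 0.05. A level says nothing about the level of another gene, because probes differ in their binding. In these bulk samples, fewer cells of a type and less RNA per cell cannot be told apart.

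The estimates of all 8 genes were upward under risperidone, but HAND2 and GATA2 moved little more than the median of all genes. At 6 h, 7 of the 8 leading probe sets rose and 0 fell, where 32.2% of the 14863 genes tested rose. At 24 h all 8 rose, against 31.3% of genes, and at 48 h 6 rose and 0 fell, against 32.3%. The median change over the 8 was 0.29 at 6 h, 0.36 at 24 h and 0.44 at 48 h, beside a median over all genes of 0.09, 0.08 and 0.07. EYA1 made by far the largest change, at 1.31, 1.495 and 1.60, while the other 7 genes lay between 0.10 and 0.71. Counted by probe set, 18 of 21 rose at 6 h, 20 at 24 h and 17 at 48 h, against 28.5%, 27.8% and 30.4% of all 36957 probe sets tested. The estimates of all 21 were above 0 at each time. Some settings tested fewer probe sets or 1 value a gene. Every member change tested was above 0 in each of the 30 settings, the main one included. Many of these settings alter only the filter, the spread or the adjustment. They leave the estimates as they are, so the agreement of signs in them was fixed in advance. All 4 treated arrays lay above all 4 untreated arrays for 19 of the 21 probe sets at 6 h, 19 at 24 h and 17 at 48 h, where 24.9%, 25.4% and 25.2% of all probe sets did so.

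**Figure D1:**
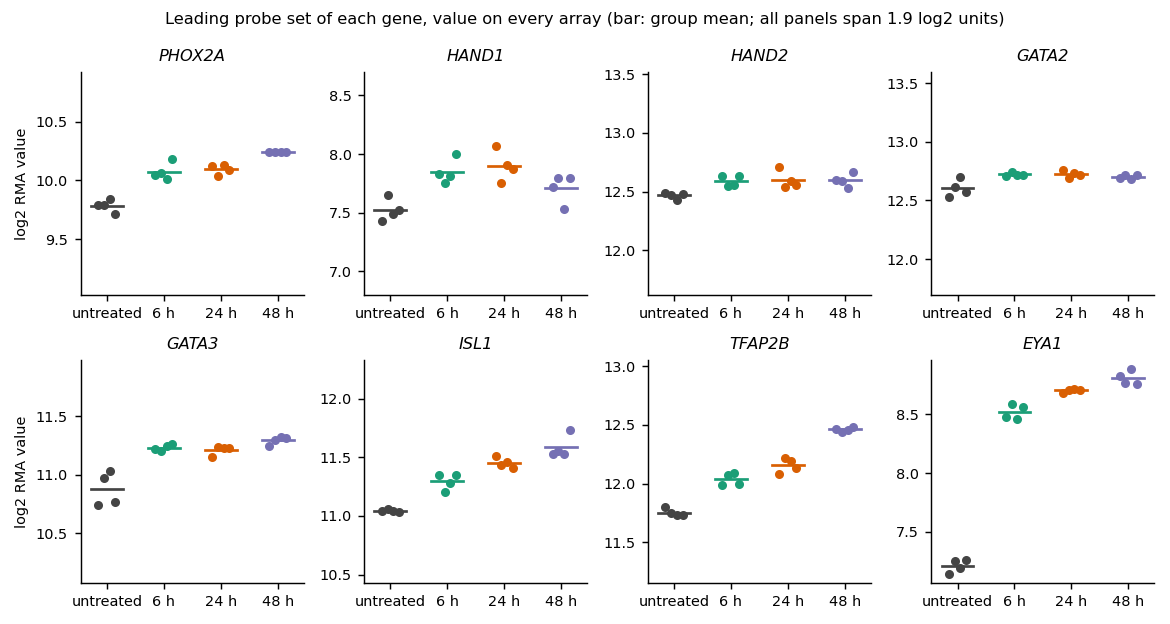
Log2 RMA value of each gene's leading probe set on every array, by group (points: arrays, bars: group means, 4 arrays each, all panels with the same span). EYA1 goes from between 7.14 and 7.26 in untreated cells to between 8.46 and 8.59 at 6 h, and TFAP2B and ISL1 have their highest mean at 48 h, while HAND2 and GATA2 move little.

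Upstream sequence is shown for HAND1, HAND2 and ISL1, because their windows hold the motif of GATA factors. A GATA3 window with a match at 240 bases before the start is not shown. Whether GATA factors act on any of these genes was not tested. RefSeq's promoter table (GRCh38.p14) gave windows of 250 bases before the transcription start for 7 of the genes, 13 windows in all, with 6 for GATA3 and 2 for GATA2. Capitals mark matches, on either strand, to 3 motifs. The motif of GATA factors was GATAA, which appears reversed and complemented where it lies on the other strand. For homeodomain factors it was TAATTA, a palindrome. The AP-2 motif was GCCNNNGGC.
HAND1, chr5:154478228-154478477, minus strand: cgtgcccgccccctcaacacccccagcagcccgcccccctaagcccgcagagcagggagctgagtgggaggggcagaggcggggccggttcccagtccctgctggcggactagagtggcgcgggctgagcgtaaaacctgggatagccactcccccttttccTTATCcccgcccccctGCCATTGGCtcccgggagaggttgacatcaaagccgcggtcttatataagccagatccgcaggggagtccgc
HAND2, chr4:173530230-173530479, minus strand: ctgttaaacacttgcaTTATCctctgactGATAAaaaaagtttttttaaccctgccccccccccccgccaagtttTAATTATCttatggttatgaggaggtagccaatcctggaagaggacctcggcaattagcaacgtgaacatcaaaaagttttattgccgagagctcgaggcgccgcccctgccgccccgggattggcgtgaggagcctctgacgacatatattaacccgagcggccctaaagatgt
ISL1, chr5:51383198-51383447, plus strand: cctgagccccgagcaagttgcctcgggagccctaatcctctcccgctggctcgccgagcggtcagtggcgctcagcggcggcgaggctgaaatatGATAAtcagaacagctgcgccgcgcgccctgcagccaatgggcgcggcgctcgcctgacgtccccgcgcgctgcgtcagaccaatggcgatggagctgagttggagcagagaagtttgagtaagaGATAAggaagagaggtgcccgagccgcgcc
The HAND2 window held 3 GATAA matches, at 234, 221 and 172 bases before the start, and the last of them overlaps the TAATTA match at 175 bases. The ISL1 window held 2 GATAA matches, at 155 and 30 bases. HAND1 had 1, at 88 bases, with a GCCNNNGGC match at 72 bases. The windows of PHOX2A and TFAP2B held none of these letters.

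Over all 13 windows GATAA was found in 4, GCCNNNGGC in 6, TAATTA in 1 and CATCTG, an E-box that HAND proteins are known to bind, in 0. Of the 35114 windows of the same length in the table, 20.4% held GATAA, 19.8% GCCNNNGGC, 4.35% TAATTA and 12.2% CATCTG. The windows of 1 gene can overlap or share sequence. Those with GCCNNNGGC belong to HAND1, GATA2 and GATA3 only. Their share of G and C was 60.8% to 74.8%, beside a median of 58% over all windows. A match is a description of the letters and does not show that a factor binds there.

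PHOX2A is a paired-like homeodomain factor known to switch on the noradrenergic genes DBH and TH. Its single probe set (11724309_s_at) read 9.79, 9.79, 9.84 and 9.71 on the untreated arrays and 10.05, 10.06, 10.01 and 10.18 at 6 h. It read 10.12, 10.04, 10.13 and 10.09 at 24 h and 10.24 on all 4 arrays at 48 h. Each treated group lay wholly above the untreated one, and the 48 h arrays above all others. The rises from untreated were 0.29 ± 0.05 (SE, n = 4 arrays per group; limma adjusted p = 9.92e-05), 0.31 (adjusted p = 4.96e-05) and 0.46 (adjusted p = 4.09e-07). The suffix of this probe set marks probes that match more than 1 transcript, so PHOX2A has no value from a probe set without that mark.

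ISL1, a LIM homeodomain factor needed for sympathetic neuron differentiation, rose at each time on its leading probe set (11725758_at). The untreated arrays read 11.04, 11.06, 11.04 and 11.03, and the 6 h arrays 11.35, 11.2, 11.28 and 11.35. The 24 h arrays read 11.51, 11.43, 11.46 and 11.41, and the 48 h arrays 11.53, 11.55, 11.53 and 11.73. No 2 neighbouring groups overlapped, but the steps between them did not pass (0.16 from 6 h to 24 h, adjusted p = 0.177, and 0.13 from 24 h to 48 h, adjusted p = 0.0919). The rises from untreated were 0.25 ± 0.05 (limma adjusted p = 0.00111), 0.41 (adjusted p = 8.41e-06) and 0.54 (adjusted p = 1.93e-07). The other ISL1 probe set (11725757_at) did not show that order. It rose from 9.63, 9.57, 9.55 and 9.56 to 10.2, 10.14, 10.09 and 10.18 at 6 h, lay at 10.07, 10.01, 10.02 and 9.98 at 24 h, and reached 10.23, 10.12, 10.17 and 10.18 at 48 h. Its rises were 0.57 (limma adjusted p = 1.49e-08), 0.44 (adjusted p = 4.51e-07) and 0.60 (adjusted p = 6.39e-09), so it had already risen at 6 h to about its 48 h level.

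HAND1 and HAND2 are basic helix-loop-helix factors that pair with E proteins, and HAND2 is the one known for sympathetic neurons. HAND1 (11728846_at) read 7.43, 7.65, 7.49 and 7.52 in untreated cells and 7.83, 7.75, 7.81 and 8 at 6 h. It read 8.07, 7.75, 7.91 and 7.87 at 24 h and 7.72, 7.8, 7.53 and 7.8 at 48 h. The 6 h and 24 h arrays were all above the untreated ones, but at 48 h 1 of the 4 arrays fell within their range. HAND1 rose by 0.32 ± 0.08 at 6 h (limma adjusted p = 0.00292) and by 0.38 at 24 h (adjusted p = 0.000849). At 48 h the change was 0.19, with a 95% interval from 0.02 to 0.36 and an adjusted p of 0.0556. Without any 1 of 5 arrays (untreated replicate 2, 6 h replicate 4, 24 h replicates 1 and 2, 48 h replicate 3) it passed the threshold, with adjusted p between 0.0145 and 0.0484.

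HAND2 lay close to the top of the array's range on its leading probe set (11729290_a_at). It read 12.49, 12.47, 12.43 and 12.48 untreated, 12.63, 12.55, 12.56 and 12.63 at 6 h, 12.71, 12.54, 12.59 and 12.56 at 24 h, and 12.6, 12.59, 12.53 and 12.67 at 48 h. All 12 treated arrays were above all 4 untreated ones, but the shift was small. It was 0.125 ± 0.05 at 6 h (limma adjusted p = 0.0539, 95% interval 0.02 to 0.23), 0.13 at 24 h (adjusted p = 0.0419) and 0.13 at 48 h (adjusted p = 0.0404). The 24 h call was lost without any 1 of 8 arrays (untreated replicates 2, 3 and 4, 6 h replicate 3, 24 h replicates 1 and 3, 48 h replicates 1 and 2; adjusted p 0.0505 to 0.149). The 48 h call was lost without any 1 of 7 (untreated replicates 2, 3 and 4, 24 h replicate 3, 48 h replicates 1, 2 and 4; adjusted p 0.0512 to 0.104), and at 6 h HAND2 passed without 24 h replicate 1 or 48 h replicate 4 (adjusted p 0.041 and 0.043). With cyclic loess scaling the adjusted p was 0.257 at 24 h and 0.168 at 48 h. The dimmer HAND2 probe set (11745698_x_at) read 8.56, 8.45, 8.25 and 8.42 untreated, 8.62, 8.86, 8.82 and 8.84 at 6 h, 8.75, 8.77, 8.81 and 8.85 at 24 h, and 8.91, 8.92, 9.04 and 8.69 at 48 h. Here too every treated array was above every untreated one. It rose by 0.36 at 6 h (limma adjusted p = 0.00104), 0.38 at 24 h (adjusted p = 0.000808) and 0.47 at 48 h (adjusted p = 6.83e-05), and the suffix of its name marks probes with sequence shared by other transcripts.

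GATA3, a zinc finger factor required for noradrenergic differentiation, rose on all 3 of its probe sets. Its leading one (11729223_at) read 10.74, 10.97, 11.03 and 10.77 in untreated cells and 11.22, 11.2, 11.25 and 11.26 at 6 h. It read 11.15, 11.24, 11.23 and 11.23 at 24 h and 11.25, 11.3, 11.32 and 11.31 at 48 h. Every treated array was above every untreated one, and the untreated arrays were the most spread. The rises were 0.35 ± 0.06 (limma adjusted p = 0.000122), 0.34 (adjusted p = 0.000211) and 0.42 (adjusted p = 1.52e-05). The other 2 probe sets rose by 0.47, 0.38 and 0.41 (11729222_a_at) and by 0.46, 0.40 and 0.45 (11758057_s_at).

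GATA2, which is known to share targets with GATA3 and to act in the same lineage, has 6 probe sets that did not move alike. The leading one (11722761_a_at) read 12.53, 12.61, 12.7 and 12.57 untreated, 12.71, 12.74, 12.72 and 12.72 at 6 h, 12.76, 12.69, 12.73 and 12.72 at 24 h, and 12.69, 12.72, 12.68 and 12.72 at 48 h. The untreated array at 12.7 lay within the 24 h and 48 h ranges. The changes were 0.12 ± 0.05 at 6 h (limma adjusted p = 0.0427), 0.12 at 24 h (adjusted p = 0.0388) and 0.10 at 48 h (adjusted p = 0.0805, 95% interval 0.00 to 0.20). The 6 h call was lost without any 1 of 12 arrays (adjusted p 0.051 to 0.114), all except untreated replicate 3, 24 h replicate 1 and 48 h replicates 3 and 4. The 24 h call was lost without any 1 of 6 (untreated replicates 1, 2 and 4, 24 h replicates 1, 3 and 4; adjusted p 0.06 to 0.105), and without untreated replicate 3 the 48 h change passed (adjusted p = 0.0215). With cyclic loess scaling the adjusted p was 0.21 at 6 h and 0.19 at 24 h.

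Of the other GATA2 probe sets, 3 rose at each time. They were 11752208_a_at (0.22, 0.18 and 0.20), 11722763_s_at (0.39, 0.42 and 0.42) and 11728946_x_at (0.32, 0.36 and 0.33). The fourth (11722762_a_at) changed by 0.26, 0.27 and 0.17 and was called at no time, with limma adjusted p of 0.0781, 0.0653 and 0.241. It passed at each time without 48 h replicate 4 (adjusted p 0.0103, 0.00757 and 0.004), and at 24 h also without 48 h replicate 3 (adjusted p = 0.0496). The fifth (11762487_at), the dimmest at a mean of 4.09, changed by 0.17, 0.32 and 0.22 and passed at 24 h (adjusted p = 0.0087) but not at 6 or 48 h, and its 24 h and 6 h levels were not told apart (adjusted p = 0.537). Without untreated replicate 1 it also passed at 6 h (adjusted p = 0.0492), and at 48 h it passed without any 1 of 5 arrays (untreated replicate 1, 6 h replicate 4, 24 h replicates 2 and 4, 48 h replicate 1; adjusted p 0.0169 to 0.0478).

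TFAP2B, an AP-2 transcription factor of neural crest derivatives, rose further with time. Its leading probe set (11733305_a_at) read 11.8, 11.75, 11.73 and 11.73 untreated and 11.99, 12.07, 12.09 and 12 at 6 h. It read 12.08, 12.22, 12.19 and 12.13 at 24 h and 12.47, 12.44, 12.46 and 12.48 at 48 h. The 6 h and 24 h arrays overlapped, and the 48 h arrays stood above all others. The rises were 0.28 ± 0.05 (limma adjusted p = 8.5e-05), 0.40 (adjusted p = 1.74e-06) and 0.71 (adjusted p = 7.61e-10), and the last is a fold of 1.64. A second probe set (11733306_a_at) followed with 0.65, 0.72 and 0.95, while the third (11733307_at) rose by 0.52, 0.57 and 0.49 and was no higher at 48 h than at 24 h (difference -0.08, 95% interval -0.19 to 0.04, limma adjusted p = 0.354).

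EYA1 changed most. On its leading probe set (11733671_a_at) the untreated arrays read 7.14, 7.25, 7.19 and 7.26, and the 6 h arrays 8.48, 8.59, 8.46 and 8.56. The 24 h arrays read 8.68, 8.71, 8.72 and 8.71, and the 48 h arrays 8.83, 8.77, 8.89 and 8.76. Neighbouring groups did not overlap at any step. From 6 h to 24 h the step was 0.1825 (limma adjusted p = 0.0665). From 24 h to 48 h it was 0.1075 (adjusted p = 0.137), so neither passed. The rises from untreated were 1.31 ± 0.05 (2.48-fold, limma adjusted p = 5.39e-13), 1.495 (2.82-fold, adjusted p = 1.48e-13) and 1.60 (3.04-fold, adjusted p = 4.47e-14). Only 0.182% of the 14863 genes had a larger rise at 6 h, 0.161% at 24 h and 0.276% at 48 h. A second probe set (11741159_a_at), at 4.74, 4.76, 4.65 and 4.73 in untreated cells, rose by 1.19, 1.36 and 1.58. The third (11741226_a_at), near the bottom of the range at a mean of 3.94 in untreated cells, rose by 0.48, 0.75 and 0.67.

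**Figure D2:**
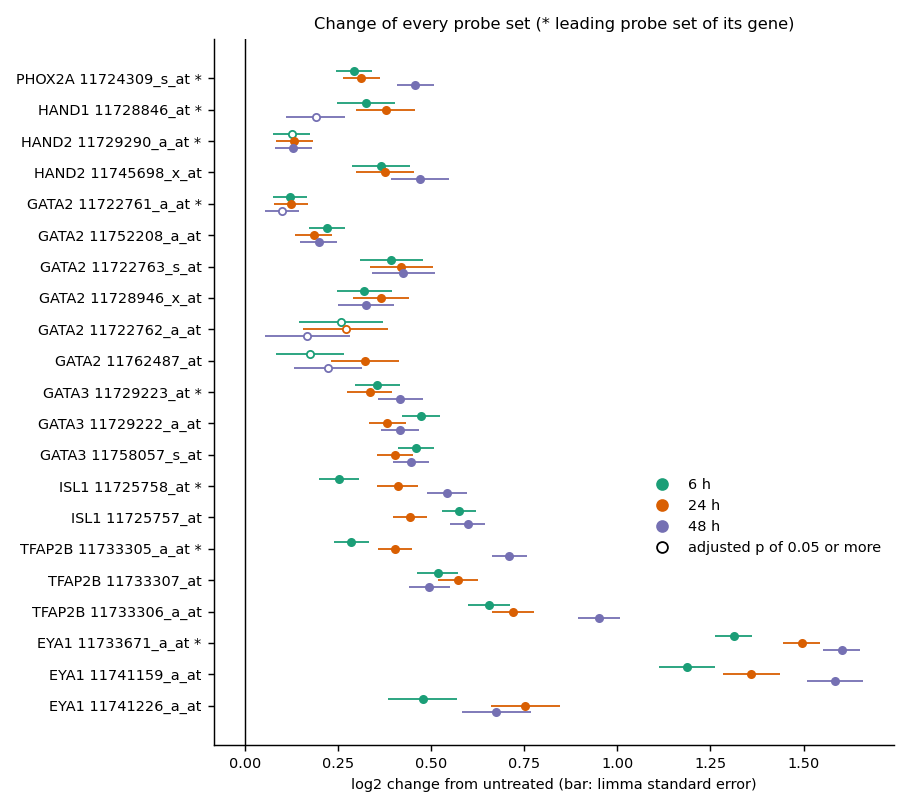
Log2 change from untreated of all 21 probe sets at 6, 24 and 48 h (bars: SE from limma, 4 arrays per group, filled points: adjusted p below 0.05, asterisk: leading probe set). Every estimate lies above 0, 2 of the 3 EYA1 probe sets exceed 1 at each time, and the open points are HAND1 at 48 h, the leading HAND2 probe set at 6 h and GATA2 probe sets.

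The 8 genes can be placed among all genes by the share with a larger rise. For TFAP2B that share was 18.9% at 6 h, 10.3% at 24 h and 4.35% at 48 h, and for ISL1 it was 22.3%, 9.98% and 8.30%. PHOX2A went from 17.9% to 16.03% and 11.3%. GATA3 kept a similar place, at 12.8%, 14.4% and 13.2%, while HAND1 went from 14.8% and 11.7% to 30.9%. HAND2 and GATA2 lay nearer the middle, with 41.7%, 40.0% and 39.3% of genes rising more than HAND2 and 42.9%, 41.8% and 44.3% more than GATA2.

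Differences between exposure times were tested directly, without the untreated arrays in the contrast. From 6 h to 24 h, 0 of the 21 probe sets passed, where 2.4% of all probe sets did in either direction and 1.06% rose. At an unadjusted p below 0.05, 5 of the 21 were higher at 24 h (ISL1, TFAP2B and all 3 EYA1 probe sets) and 1 was lower (the second ISL1 probe set), where 7% of all probe sets were higher and 6.63% lower at that p. From 24 h to 48 h 5 rose further, where 23.1% changed and 11.8% rose. From 6 h to 48 h 6 rose further, where 28.8% changed and 14.6% rose, with 0 members falling between any 2 times.

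TFAP2B gained most between times. Its leading probe set rose by 0.31 from 24 h to 48 h (limma adjusted p = 0.000139) and by 0.425 from 6 h to 48 h (adjusted p = 3.59e-06), and 11733306_a_at by 0.23 (adjusted p = 0.00684) and 0.29 (adjusted p = 0.000837). EYA1 rose by 0.29 from 6 h to 48 h on its leading probe set (adjusted p = 0.000294) and by 0.40 on 11741159_a_at (adjusted p = 0.000784). The latter also rose by 0.22 from 24 h to 48 h (adjusted p = 0.0406), a call lost without any 1 of 5 arrays (24 h replicates 1, 2 and 4, 48 h replicates 2 and 3; adjusted p 0.0544 to 0.141). The leading EYA1 probe set differed by 0.18 between 6 h and 24 h, with no overlap, at an adjusted p of 0.0665.

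ISL1 rose by 0.29 from 6 h to 48 h on its leading probe set (limma adjusted p = 0.00066), whereas 11725757_at rose by 0.155 from 24 h to 48 h only (adjusted p = 0.0209). That call was lost without 24 h replicate 2 or 4 or 48 h replicate 1 (adjusted p 0.0518 to 0.0686). PHOX2A rose by 0.14 from 24 h to 48 h (adjusted p = 0.0392) and by 0.165 from 6 h to 48 h (adjusted p = 0.0165). The first of these was lost without any 1 of 9 arrays (6 h replicate 2 and each 24 h and 48 h array; adjusted p 0.0504 to 0.116), and the second without 6 h replicate 3 (adjusted p = 0.0599). HAND1, HAND2, GATA2 and GATA3 had no call between times, and the HAND1 mean was lower at 48 h than at 24 h without passing (difference -0.19, 95% interval -0.35 to -0.02, adjusted p = 0.101).

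At 6 h and 24 h the brightest probe set mostly had the smallest rise of its gene. Among the 6 genes with several probe sets, the leading one had the smallest rise in 5 at 6 h and in 5 at 24 h, all except EYA1, and in 3 at 48 h (GATA2, HAND2 and ISL1). Over 8946 genes with several probe sets tested, the share was 37.5%, 37.4% and 37.9%. Across the 21 probe sets the level in untreated cells and the change correlated at Pearson's r = -0.39 at 6 h, -0.49 at 24 h and -0.33 at 48 h (Spearman's rho -0.39, -0.37 and -0.22), beside -0.08, -0.08 and -0.10 over all probe sets. This is a description, since probe sets of 1 gene share their transcript and all share the arrays, and whether signal near the top of the range is compressed was not tested.

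**Figure D3:**
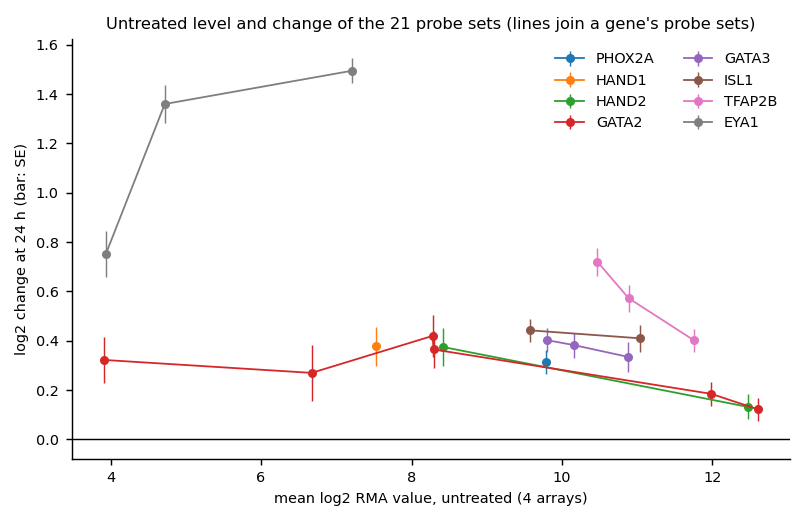
Log2 change at 24 h against the mean log2 RMA value in untreated cells for the 21 probe sets, with probe sets of 1 gene joined (bars: SE, 4 arrays per group). The brightest probe sets of HAND2 and GATA2, above 12, have changes of 0.13 and 0.12, and dimmer ones of the same genes reach 0.38 and 0.42.

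The paired family members did not change equally on their leading probe sets. The within-array difference GATA3 minus GATA2 went from -1.73 ± 0.08 (SD, n = 4) in untreated cells to -1.49 ± 0.04 at 6 h, -1.51 ± 0.07 at 24 h and -1.41 ± 0.03 at 48 h. GATA3 thus rose more than GATA2 by 0.23, 0.21 and 0.32, each with an adjusted p of 0.0343 (exact two-sided permutation test over 70 arrangements, smallest possible p 0.0286, Benjamini-Hochberg over 6 tests). HAND2 minus HAND1 went from 4.94 ± 0.10 untreated to 4.75 ± 0.08 at 6 h and 4.70 ± 0.06 at 24 h, and HAND1 rose more by 0.20 and 0.24 (adjusted p = 0.0343 each, exact permutation test). At 48 h it was 4.88 ± 0.09, and the difference of 0.06 did not pass (change -0.06, adjusted p = 0.4). When all probe sets of a gene were averaged, the differences no longer passed. The GATA values were then 0.18 (adjusted p = 0.0857), 0.09 (0.171) and 0.19 (0.0857), and the HAND values -0.08 (0.4) at 6 h and -0.12 (0.3) at 24 h by the same exact test. With cyclic loess scaling the adjusted p of the 5 lay between 0.0571 and 0.103. Each of the 5 also missed the threshold without untreated replicate 1 or 24 h replicate 2, and with any 1 array left out the GATA values lay between 0.1875 and 0.346 and the HAND values between -0.287 and -0.162. The GATA difference at 24 h did so without untreated replicate 4 too, and the HAND differences without any 1 array of the exposed group.

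Partners of these proteins moved both ways. Of 25 tested partners, cofactors and inhibitors, 8 rose and 9 fell at 6 h, 7 rose and 9 fell at 24 h, and 7 rose and 11 fell at 48 h. Of all genes tested, 32.2%, 31.3% and 32.3% rose and 15.1%, 15.2% and 19.1% fell, so the partners' rises lay near the share of all genes. The falls include ID4, which was below the limit for dim probe sets after treatment. Their median change was 0.07, 0.02 and -0.09. LMO1, a LIM-only adaptor that bridges GATA and helix-loop-helix complexes, rose by 1.08 ± 0.08, 1.11 and 1.04, from a mean of 6.48 in untreated cells (limma adjusted p = 1.16e-08, 7.6e-09 and 1.32e-08). ZFPM1, also called FOG1, a cofactor that binds GATA factors, rose by 0.43, 0.33 and 0.71. CITED1 rose by 0.79 at 6 h and 0.68 at 24 h, and its change at 48 h was 0.08 (adjusted p = 0.36).

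The largest changes among the partners were falls. CITED2, a coactivator of AP-2 factors, fell from 7.33 to 3.77 at 6 h, with changes of -3.55 ± 0.12, -3.32 and -3.23 (limma adjusted p = 1.95e-13 at 6 h). SIX4, of the family that brings EYA proteins to DNA, went from 6.90 to 3.77, 3.95 and 3.94, so its changes were -3.13, -2.95 and -2.95 while EYA1 rose. LMO4 fell on its leading probe set (changes -2.75, -2.49 and -2.93), but its other probe sets changed by -0.55 to -0.36 at 6 h, -0.40 at 24 h and -0.49 to -0.44 at 48 h. The E protein TCF4, which pairs with HAND factors, changed by 0.07, 0.12 and 0.11 without passing (adjusted p = 0.209, 0.0508 and 0.0546). It passed at 24 h without untreated replicate 2 or 48 h replicate 4 (adjusted p = 0.0119 to 0.0475) and at 48 h without untreated replicate 2 (adjusted p = 0.0122).

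Relatives from the same families mostly lay low and moved little. Of 12 listed, 4 were too dim to test, and of the other 8, 2 rose and 1 fell at 6 h, 1 rose and 1 fell at 24 h, and 3 rose and 0 fell at 48 h. Among all genes 32.2%, 31.3% and 32.3% rose and 15.1%, 15.2% and 19.1% fell, so these counts are no result about the relatives. ISL2 rose at each time, by 0.41, 0.40 and 0.46 from a mean of 4.78. GATA4 rose by 0.49 at 6 h and 0.30 at 48 h on its leading probe set, while its other probe sets lay between -0.05 and 0.06. The 48 h call of GATA4 was lost without untreated replicate 1 or 4 (adjusted p 0.0539 to 0.0571). TFAP2E rose by 0.20 at 48 h, TFAP2A fell by 0.23 at 6 h (limma adjusted p = 0.0481) and GATA6 fell by 0.18 at 24 h (adjusted p = 0.0415). These 3 genes lay close to the floor of the array. TFAP2E, at a mean of 3.495 untreated, was below the limit of 3.51 for dim probe sets and passed the filter only through its treated arrays. GATA6 was below that limit at 24 h, at 3.4475, and passed the filter only through its untreated arrays. The calls of TFAP2E and GATA6 are therefore no result about them. The TFAP2A call was lost without any 1 of 11 arrays (adjusted p 0.0524 to 0.175), its other probe set was at 0.11, and the GATA6 call was lost without any 1 of 6 (adjusted p 0.0503 to 0.143).

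Other transcription factors of adrenergic cells were tested as a list of 11. At 6 h 6 rose and 1 fell, at 24 h 6 rose and 2 fell, and at 48 h 5 rose and 3 fell, with median changes of 0.29, 0.19 and 0.09. Of all genes 32.2%, 31.3% and 32.3% rose and 15.1%, 15.2% and 19.1% fell. Without 6 h replicate 4, 2 fell at 6 h. KLF13 rose by 0.82, 0.91 and 0.90, KLF7 by 0.67, 0.76 and 0.63, and the chromatin organiser SATB1 by 0.61, 0.52 and 0.57. The other probe set of KLF13 changed by 0.50, 0.56 and 0.605, and those of SATB1 by 0.34 to 0.55, 0.11 to 0.40 and 0.11 to 0.46. Those of KLF7 were at 0.87 to 1.00, 0.79 to 1.15 and 1.24 to 1.89. PBX3, a homeodomain cofactor, fell, with changes of -0.53, -0.47 and -0.19. SOX11 fell by 0.385 at 48 h (other probe sets -0.69 to -0.05) and TBX2 fell by 0.34 at 24 h.

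Noradrenergic and sympathetic genes, which include known targets of the 8 factors, moved both ways, with more rises than falls. Of 20 tested, 13 rose and 4 fell at 6 h, 11 rose and 3 fell at 24 h, and 13 rose and 5 fell at 48 h. All genes rose at 32.2%, 31.3% and 32.3% and fell at 15.1%, 15.2% and 19.1%, so the falls lay near that share. Their median change was 0.34, 0.30 and 0.38. DBH, dopamine beta-hydroxylase, which makes noradrenaline, rose from 10.51 to 11.67, 11.85 and 12.25, by 1.16 ± 0.07, 1.34 and 1.74 (limma adjusted p = 8.62e-13 at 48 h). SLC18A1, a vesicular monoamine transporter, rose by 1.80, 1.92 and 1.87, and the artemin receptor GFRA3 by 0.96, 1.16 and 2.07 (other probe set 0.29, 0.54 and 1.0025). TH, the rate-limiting enzyme of catecholamine synthesis, was low at 4.90 in untreated cells, rose by 0.28 at 6 h (adjusted p = 0.00488), and changed by 0.16 and 0.10 later (adjusted p = 0.0878 and 0.265). Without untreated replicate 2 its 24 h change passed too (adjusted p = 0.0214). Against this direction, the neurturin receptor GFRA2 fell (changes -1.70, -1.22 and -1.19), as did the granule protein SCG2 (-1.14, -1.0025 and -0.98) and the receptor tyrosine kinase RET (-0.60, -0.40 and -0.55). These are leading probe sets. The other 2 of GFRA2 changed less, by -0.45 to -0.42, -0.52 to -0.30 and -0.58 to -0.38. The other 2 of RET were at -0.36 to -0.24 at 6 h, -0.18 to -0.01 at 24 h and 0.08 to 0.09 at 48 h, so the fall of RET was not shared by all its probe sets.

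**Figure D4:**
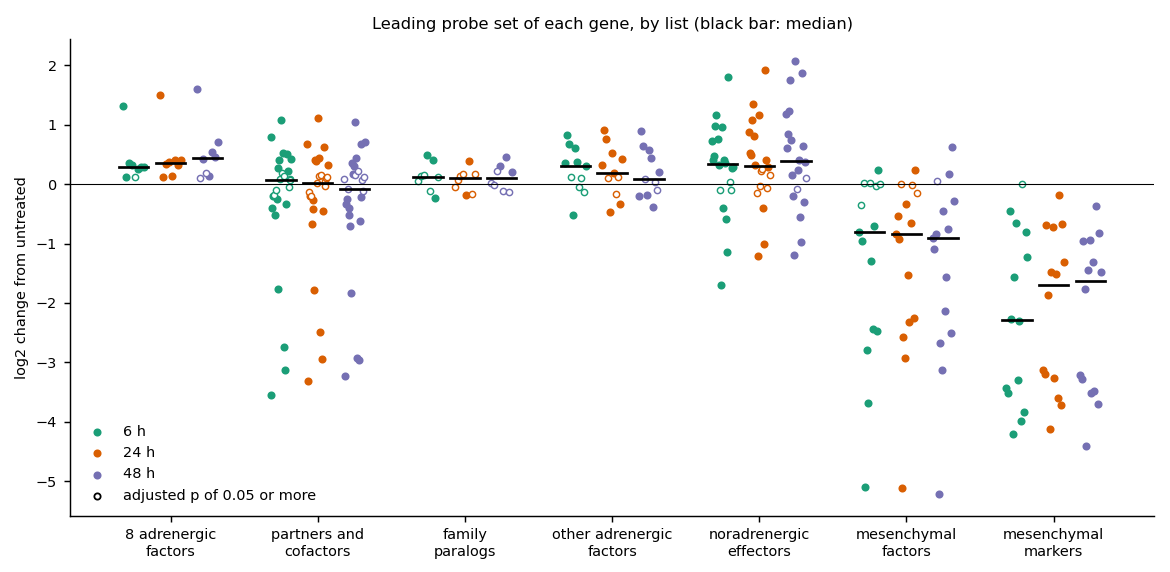
Log2 change from untreated of each gene's leading probe set at 6, 24 and 48 h, by gene list (points: genes, black bars: list medians, open points: adjusted p of 0.05 or more in limma). The 8 factors lie above 0 with EYA1 uppermost, the partners spread from 1.11 to -3.55, and the mesenchymal lists lie mostly below 0, down to -5.21.

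Genes of the mesenchymal cells that such cultures hold fell at the same times. All 14 mesenchymal marker genes fell at 24 h and at 48 h and 13 fell at 6 h, with 0 rising, where 15.1%, 15.2% and 19.1% of all genes fell, and the median change was -2.29, -1.69 and -1.62. Their mean log2 level lay between 8.92 and 9.04 on the untreated arrays and between 6.59 and 6.91 on all treated arrays. Fibronectin (FN1) fell at each time (changes -3.30, -3.27 and -3.51), as did the collagen gene COL6A3 (-4.20, -4.12 and -4.41) on its leading probe set. The other 2 probe sets of COL6A3 disagreed, since the highest change among them was 0.05, 0.11 and 0.175 and the lowest -3.44, -3.38 and -3.33. The count of falls includes POSTN, which passed the filter only through the untreated arrays (mean 7.01) and lay at 3.18, 3.30 and 3.32 after treatment, below the limit of 3.51 for dim probe sets. The intermediate filament gene VIM fell too (changes -1.24, -1.31 and -1.48) but remained at 11.82 or above in the group means. The mean over the 8 adrenergic factors lay between 10.37 and 10.44 untreated, 10.77 and 10.84 at 6 h, 10.83 and 10.89 at 24 h and 10.90 and 10.96 at 48 h. The part of a changed share of cells in these rises was not tested.

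Of 15 mesenchymal transcription factors tested, 1 rose and 9 fell at 6 h, 1 rose and 11 fell at 24 h, and 2 rose and 12 fell at 48 h, where 32.2%, 31.3% and 32.3% of all genes rose and 15.1%, 15.2% and 19.1% fell. The falls include TWIST2, which passed the filter only through the untreated arrays and lay at 3.22, 3.43 and 3.19 after treatment. PRRX1, a homeodomain factor of the mesenchymal state, fell from 9.07 to 3.98, 3.96 and 3.86 (change -5.21 ± 0.14 at 48 h, limma adjusted p = 9.13e-15). SNAI2 fell (changes -1.30, -1.54 and -2.14), and so did RUNX1 (-2.78, -2.56 and -2.67; other probe sets between -2.37 and -0.12 at 6 h). RUNX2 fell by 3.68 at 6 h on its leading probe set, while its other one was at 0.16. The risers were ZEB1, by 0.23, 0.24 and 0.61 (other probe sets between -0.12 and 0.145 at 24 h), and TWIST1, by 0.16 at 48 h. Few glial genes could be tested. Of 7 listed, 3 were tested, S100B rose by 0.60, 0.56 and 0.39 (other probe sets 0.20 to 0.47, 0.30 to 0.38 and 0.145 to 0.23), and SOX10 changed by 0.08, 0.27 (adjusted p = 0.0329) and 0.13 from a level of 3.75. The SOX10 call was lost without any 1 of 4 arrays (untreated replicates 2 and 4, 24 h replicates 1 and 2; adjusted p 0.073 to 0.106).

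Array medians lay between 4.5 and 4.62. The ACTB control probe sets, whose difference between the 3 prime and 5 prime ends reads RNA integrity, differed by 1.55 to 1.94 on the untreated arrays and by 1.98 to 2.41 at 6 h, 1.94 to 2.16 at 24 h and 1.76 to 2.15 at 48 h. For GAPDH the difference was 0.08 to 0.18 untreated and 0.07 to 0.12 on all treated arrays. The part of RNA integrity in the rises of the 8 genes was not tested. Of all calls over the probe sets, 66.3%, 64.7% and 61.7% were rises at 6, 24 and 48 h, and with cyclic loess scaling 45.3%, 45.0% and 46.9%.

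For the 3 genes whose leading probe set rose by at least 0.5, the genes of most like pattern were sought among 14862 others, by the root mean square difference of centred values over the 16 arrays. ISL1 was most like MAFG (difference 0.053, changes 0.28, 0.40 and 0.55) and PNMA8A (0.060; 0.34, 0.38 and 0.51). TFAP2B was most like UFSP2 (0.044; 0.27, 0.36 and 0.71) and NTAQ1 (0.051; 0.36, 0.42 and 0.75). EYA1 was most like IL20RA (0.082; 1.26, 1.34 and 1.47) and TSPAN7 (0.082; 1.31, 1.45 and 1.60). These are likenesses of the measured pattern only.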

How the data were processed

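The authors deposited log2 expression values per probe set of 1-colour Human Genome U219 arrays, computed by RMA per the submitters' processing notes, whose software version is not given in the sources used here. RMA equalises the distributions of the arrays, so a change in total RNA per cell cannot be seen. Control probe sets were left out (93), as were the dimmest 25% of the rest (mean up to 3.51), which left 36957. Symbols came from GEO's platform annotation, and only probe sets with a single symbol were named (45253). Linear models were fitted to the deposited log2 values in R 4.3.3 with limma 3.58.1 (moderated two-sided test, all 16 arrays, 1 mean per group, no covariate), with Benjamini-Hochberg adjustment over all probe sets within each contrast at 0.05. The number of arrays limits the precision. Values after ± are limma's standard errors unless given as SD. The script was tested on simulated data. Family pairs were compared by exact permutation tests.

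The members and the gene lists were chosen with earlier results of these data known. Named are all member probe sets; from each list the 3 largest rises and falls past the threshold at any time, with TH, DBH, RET, LMO1, TCF4, PRRX1, SNAI2, SOX10, VIM and FN1 in any case; and the 2 genes most like each member that rose by at least 0.5. Some genes of the rule and lists are not reported here. Alternatives were other probe set summaries, filters of none and 50%, 3 other scalings, trend and robust eBayes, array weights, a replicate block, only the 8 arrays compared, adjustment over 3 contrasts together and each array left out. Leaving out probe sets marked as shared (_s_at, _x_at) was added after seeing the data.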

Additional observations from a re-analysis of the deposited data

Results flagged for a closer look

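For the member probe sets, 11 differences between exposure times passed limma's threshold, all of them increases on the log2 scale. Of the 21 probe sets, 0 passed from 6 h to 24 h, 5 from 24 h to 48 h and 6 from 6 h to 48 h. Of all probe sets 2.4%, 23.1% and 28.8% changed and 1.06%, 11.8% and 14.6% rose. The numbers of calls from 24 h and from 6 h to 48 h thus lay near the share of all probe sets that changed. PHOX2A was higher at 48 h than at 24 h by 0.145 and than at 6 h by 0.165. ISL1 was higher at 48 h than at 6 h by 0.29 on its leading probe set, and than at 24 h by 0.155 on the other. TFAP2B was higher at 48 h than at 24 h by 0.3075 and than at 6 h by 0.425 on its leading probe set, and by 0.23 and 0.295 on a second. EYA1 was higher at 48 h than at 6 h by 0.29 on its leading probe set and by 0.3975 on 11741159_a_at, which was also higher than at 24 h by 0.225.

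In 5 of the 84 groups of 4 arrays examined, 1 array lay far from the other 3, where chance gives about 1 in 20. These were HAND2 (11745698_x_at) at 6 h, replicate 1, with 8.62, and GATA2 (11728946_x_at) untreated, replicate 2, with 8.46. The others were GATA3 (11729223_at) at 24 h, replicate 1, with 11.15, ISL1 (11725758_at) at 48 h, replicate 4, with 11.73, and TFAP2B (11733307_at) untreated, replicate 3, with 10.73.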

How the results depend on the processing

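No result that passed its test turned its direction in any setting run. All member changes from untreated that were tested stayed above 0 in the 30 settings, the main one included. Settings that alter only the filter, the spread or the adjustment could not change a direction. Only the other scalings, the mean of probe sets, array weights and arrays left out could do so. Per setting, between 5 and 8 member genes rose at 6 h and at 24 h and between 4 and 8 at 48 h. With 1 array left out between 6 and 8, 6 and 8, and 5 and 7 rose. The share of all genes that rose in each setting, the replicate block included, is not given here, so these counts are not read against it. Without probe sets marked as shared, 5 genes and 13 probe sets rose at 24 h and 11 probe sets at 48 h. Fewer were tested, PHOX2A being left out, and some calls were lost. The leading GATA2 probe set did not pass at 6 or 24 h (limma adjusted p = 0.0614 and 0.056). The leading HAND2 probe set did not pass at 24 or 48 h (adjusted p = 0.0562 and 0.0546). From 24 h to 48 h, 3 member probe sets passed with no filter on dim probe sets and 2 with array medians subtracted, and between 2 and 5 with 1 array left out (2 without 24 h replicate 2 or 4, 3 without 24 h replicate 1 or 48 h replicate 1, 2 or 3). From 6 h to 24 h, 1 passed with the dimmest 50% left out, with cyclic loess, with trend and robust eBayes and with adjustment over 3 contrasts, and 2 with array weights, against 0. The causes were not tested.

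The differences GATA3 minus GATA2 at 6, 24 and 48 h did not pass when a gene's probe sets were averaged (0.182, 0.0925 and 0.186) or with cyclic loess (0.215, 0.193 and 0.294). Nor did HAND2 minus HAND1 at 6 and 24 h, with -0.08 and -0.124 for the mean and -0.136 and -0.184 for cyclic loess. With 1 array left out the GATA differences ranged from 0.21 to 0.263, 0.1875 to 0.245 and 0.2925 to 0.346, and the HAND differences from -0.242 to -0.162 and -0.287 to -0.207. They missed the threshold without untreated replicate 1 or 24 h replicate 2 in all 5, and the GATA difference at 24 h also without untreated replicate 4. The HAND difference at 6 h did so without each 6 h array, and at 24 h without each 24 h array.

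Replicate numbers are labels only, since residuals of same-numbered arrays correlated between -0.145 and 0.17 and 7 of 16 arrays correlated best with their own number. With the replicate block, 6, 7 and 6 member genes rose, GATA2 lost its calls at 6 and 24 h (limma adjusted p = 0.0612 and 0.0564), and PHOX2A its call from 24 h to 48 h (0.0621). The paralog differences keep their values in the pairing (0.235, 0.2125, 0.3175, -0.2 and -0.245), with adjusted p = 0.15 in an exact sign-flip test whose smallest p is 0.125.

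Of the lists, averaging a gene's probe sets gave 3 noradrenergic genes lower at 48 h, 1 mesenchymal marker higher at 6 h, 0 mesenchymal factors higher at 24 h and 3 other adrenergic factors lower at 6 h. Cyclic loess gave 2 of the last, and leaving out 1 array 1 to 2. Mesenchymal factors higher at 48 h came to 1 with repeated quantile normalization and with only the 8 arrays compared, and those lower at 24 h to 7 with the dimmest 50% left out. With 4 arrays a group, changes near 0.1, as those of the brightest HAND2 and GATA2 probe sets, lay at the limit of what was called.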

Other observations

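The 4 inhibitor of differentiation genes ID1, ID2, ID3 and ID4, whose proteins take E proteins away from partners such as the HAND factors, were named after their values were seen. Their changes are given for 6, 24 and 48 h in turn. ID1 fell from a mean of 11.94 in untreated cells (-0.52, -0.68 and -0.51; limma adjusted p = 1.97e-07 at the first time). ID3 fell (-0.25, -0.42 and -0.71). ID4 went from 5.16 to 3.39, 3.37 and 3.32, below the limit of 3.51 for dim probe sets, so it passed the filter only through the untreated arrays and had to differ. ID2 changed by -0.09 at first (adjusted p = 0.238) and fell later (-0.27 and -0.40). SSBP2, which stabilises LIM domain complexes, rose by 0.50, 0.61 and 0.67, and the adaptor LMO3 by 0.52, 0.43 and 0.43. Both were named after their values were seen, and others of the same list moved otherwise. SSBP3 changed by 0.23, 0.05 and -0.21, a rise at 6 h and a fall at 48 h (limma adjusted p = 0.0181 and 0.0239). LDB1 changed by 0.08, 0.02 and 0.305 and passed at 48 h only (adjusted p = 0.00929).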
